A study of Mus musculus with 816 samples.

Results

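Resveratrol alone, at 50 uM for 24 hours, was compared with no treatment in cultured mouse microglia. The 11 cultures labelled resveratrol without lipopolysaccharide (LPS) were picked from the 816 samples of the series by their treatment, dose and time labels, and the 40 cultures labelled None at 24 hours were the controls. All were primary microglia of newborn mice, bought from a supplier in 3 lots, grown on coated multiwell plates and given fresh medium with or without the compound some days after plating. None of these cultures received LPS, and no strain or transgene is given. No culture with solvent alone is labelled, so resveratrol and its solvent cannot be told apart. Beside them stood 11 cultures with rapamycin at 5 nM, 7 with LPS_lo (LPS at 1e-05 ug/ul) and 8 with LPS_lo+resveratrol, for which the labels give the LPS dose and no resveratrol dose, all at 24 hours.

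Resveratrol is a stilbene of grapes and other plants. It is studied in many cells as an agent that touches sirtuins, the energy sensor AMPK, the aryl hydrocarbon receptor (AHR), prostaglandin synthesis and the antioxidant factor NRF2, and it slows the division of many cultured cells. Microglia, the resident macrophages of the brain, divide in culture and carry programs for phagocytosis, lipid uptake, iron handling and inflammation.

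RNA was sequenced near the 3' ends of transcripts, and values are read counts scaled to the mapped reads of each culture (CPM), which carry no correction for gene length. The resveratrol cultures had 1107000 to 20690000 mapped reads and the untreated cultures 1086000 to 14949000, with 8250 to 9532 and 8096 to 9466 genes above 5 CPM. Microglia and macrophage markers summed to 20260 to 35390 CPM with resveratrol and 19110 to 30980 CPM without. Of these 14 markers, 13 had a median above 5 CPM in both groups. Astrocyte markers summed to at most 15.6 and 23.1 CPM, with Gfap and Aqp4 at a median of 0. Fibroblast and pericyte markers ranged more widely, from 1.226 to 515.4 CPM with resveratrol and from 0.6505 to 1281 CPM without, and none of the 3 tested was called.

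The layout of the plates bears on every result. The resveratrol cultures lay on 4 plates, called A to D here, which also held 27 of the untreated cultures, and the other 13 untreated cultures were on plates E and F. On plate A the resveratrol wells were 2 middle wells, on B 3 middle wells, on C 2 edge or corner wells, and on D 3 middle wells and 1 edge well. Of the 40 untreated wells 30 were in the middle, and on plate B all 3 lay at the edge or in a corner. Differences were therefore fitted with plate as a block and, as another reading, with plate by well position (edge or middle) as a block, in which plate B gives no information. The untreated cultures of a library pool on plate E stood apart from the rest, and counts are also given without them.

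With resveratrol, genes of mitosis and DNA replication fell, and so did the lipid and matrix genes Lpl, Mmp12 and Spp1. The iron exporter gene Slc40a1, the chemokine gene Ccl6 and the Fc receptor genes Fcgr2b and Fcgr3 rose. In all, 406 of 10318 genes tested (3.93%) passed an adjusted p of 0.05 (limma with Benjamini-Hochberg adjustment), 110 higher (1.07%) and 296 lower (2.87%). At least a 2-fold change was fitted for 152 of them (1.47%). The median difference over all genes tested was 0.02 on the log2(CPM + 1) scale, on which all differences below are given as resveratrol minus untreated. Of the genes called higher, 89 of 110 were higher in each of the 4 plates, and 246 of the 296 called lower were lower in each.

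With plate by well position as the block 477 genes (4.62%) were called, 179 higher (1.73%) and 298 lower (2.89%). The fitted differences of all 406 genes kept their sign there, but the fit uses the wells in which they were called. Of those 406 genes, 294 were also called there, 79 higher and 215 lower. Of 66 called genes that were named by rule, 15 were not called there, namely Alox5, Mplkip, Il4ra, Rel, Fabp5, Fdft1, Fdps, Itgb2, Tpi1, Ahsa1, Rgs2, Psat1, Gusb, Tfrc and Trp53inp1. With middle wells alone, which leaves out 3 resveratrol cultures and every untreated well of plate B, 30 of the 66 were not called. Plate D carried much of the strength of the test. Without it 60 genes were called, 8 higher and 52 lower, although the 396 genes that could be tested all kept their sign, and 51 of the 66 named genes did not pass. Without the untreated pool that stood apart, 612 were called.

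**Figure D1:**
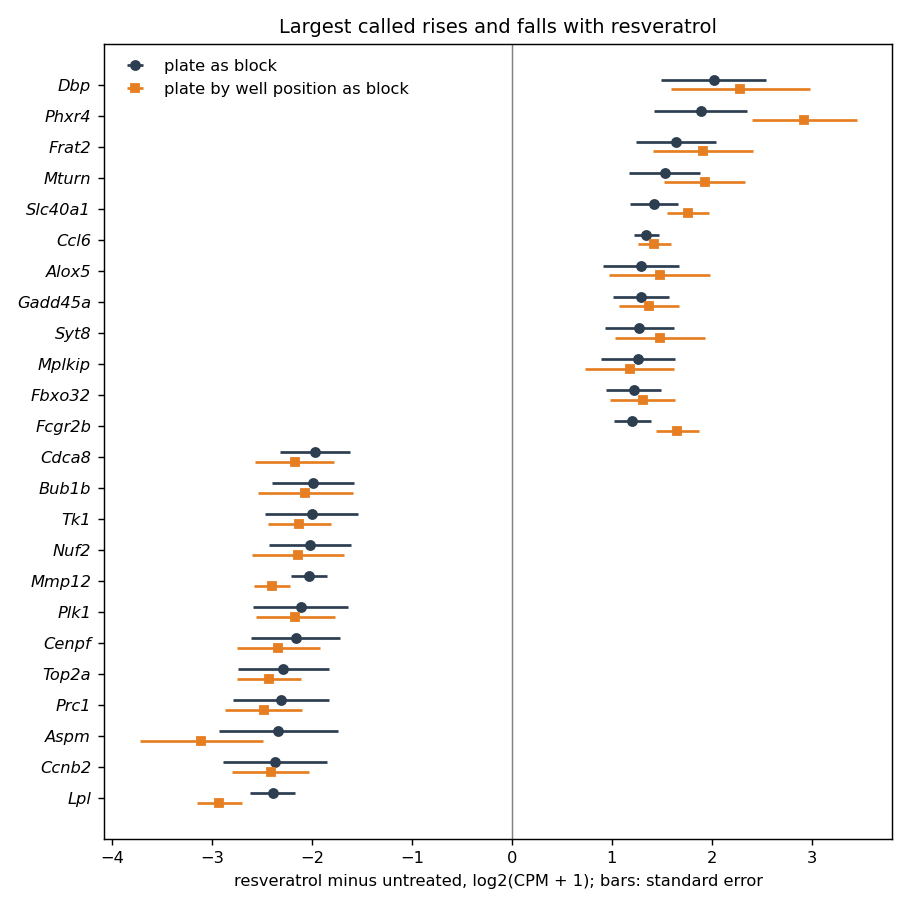
Differences of the 12 genes with the largest called rises and the 12 with the largest called falls, resveratrol minus untreated on the log2(CPM + 1) scale, with plate as block (circles) and plate by well position as block (squares); bars are standard errors. Lpl lies at -2.39 and -2.93 and Slc40a1 at 1.42 and 1.76. The 24 genes were picked for the same sign on each of plates A to D. Both readings use the same wells, so that a shared side of 0 was nearly fixed in advance.

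Lpl encodes lipoprotein lipase, a secreted enzyme that releases fatty acids from lipoproteins and a marker of microglia that handle lipid. Its level was 195.5 to 1228 CPM (median 426.2) in the 11 resveratrol cultures and 583.9 to 6323 CPM (median 2015) in the 40 untreated cultures. The ranges overlap across plates, yet within its plate each of the 11 resveratrol cultures lay below every untreated well. On plate A the resveratrol wells had 928.9 and 1228 CPM against 3052 to 4106 CPM untreated, and on plate D 219.5 to 426.2 CPM against 1093 to 6323 CPM. The 2 resveratrol wells at the edge of plate C had 195.5 and 405.3 CPM against 1949 CPM in its untreated edge well, and the edge well of plate D had 219.5 CPM against 1093 and 3155 CPM. The difference was -2.39 ± 0.22 (SE), or 5.25-fold lower (adjusted p = 1.04e-10), and -2.93 ± 0.23 with position in the block. The gene lies on the plus strand at chr8:68880491-68907448 (GRCm38).

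Mmp12, on chr9:7344381-7369499 (plus strand), encodes macrophage elastase, which cuts elastin and other matrix proteins. It ranged from 13.44 to 468.0 CPM (median 197.9) with resveratrol and from 93.87 to 1319 CPM (median 360.2) without. The plates differed widely in level, and in each of them all resveratrol cultures lay below all untreated cultures. On plate D the middle wells had 13.44 to 17.91 CPM with resveratrol and 93.87 to 194.8 CPM without. The difference was -2.03 ± 0.18 (4.08-fold lower, adjusted p = 7.83e-11).

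Spp1 encodes osteopontin, a secreted phosphoprotein of activated macrophages. It measured 121.3 to 1109 CPM (median 228.5) with resveratrol and 167.9 to 2607 CPM (median 673.8) without, at chr5:104435118-104441050 on the plus strand. Again all 11 cultures fell below every untreated well of their own plate, and the difference was -1.58 ± 0.18 (3-fold lower, adjusted p = 2.40e-08). These 3 genes were also called without plate D, Lpl at an adjusted p of 1.3e-06, Mmp12 at 1.1e-08 and Spp1 at 2.1e-03.

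Slc40a1 encodes ferroportin, the iron exporter of the plasma membrane (chr1:45908068-45926523, minus strand). Its level was 290.4 to 887.5 CPM (median 356.0) in the resveratrol cultures and 53.69 to 369.9 CPM (median 157.6) in the untreated cultures. The groups overlapped only through plate D, where untreated edge wells had 311.7 and 369.9 CPM and untreated middle wells 53.69 to 152.1 CPM. There the middle wells with resveratrol had 332.7 to 399.3 CPM and the edge well 887.5 CPM, so that wells in like position did not overlap. The difference was 1.42 ± 0.24 (2.68-fold higher, adjusted p = 1.45e-04), and 1.76 ± 0.21 with position in the block.

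Ccl6, a chemokine gene of the myeloid lineage (chr11:83587882-83593087, minus strand), did not overlap between the groups at all. It measured 206.3 to 420.3 CPM (median 299.2) with resveratrol and 50.82 to 196.1 CPM (median 134.2) in the 40 untreated cultures. The difference was 1.34 ± 0.13 (2.54-fold higher, adjusted p = 1.04e-10).

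The Fc receptors of microglia, which bind antibody on targets to be engulfed, moved in opposite directions. Fcgr2b, the inhibitory receptor (chr1:170958617-170976547, minus strand), had 387.6 to 1278 CPM (median 618.6) with resveratrol and 89.69 to 572.8 CPM (median 273.3) without, a difference of 1.21 ± 0.18 (adjusted p = 1.74e-05). Fcgr3, an activating receptor that neighbours it (chr1:171051174-171064935, minus strand), had 420.3 to 869.9 CPM (median 592.7) against 167.0 to 629.9 CPM (median 319.7). It was above every untreated well of its plate in 11 of 11 cultures and rose by 0.86 ± 0.13 (adjusted p = 1.51e-05). The high-affinity activating receptor gene Fcgr1 fell, by 0.58 ± 0.13 (adjusted p = 3.78e-03). Fcgr2b and Fcgr3 are related in sequence, and reads shared between them could be assigned to either by the authors' counting. Without plate D the adjusted p of Fcgr2b was 0.091 and that of Fcgr3 0.017.

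**Figure D2:**
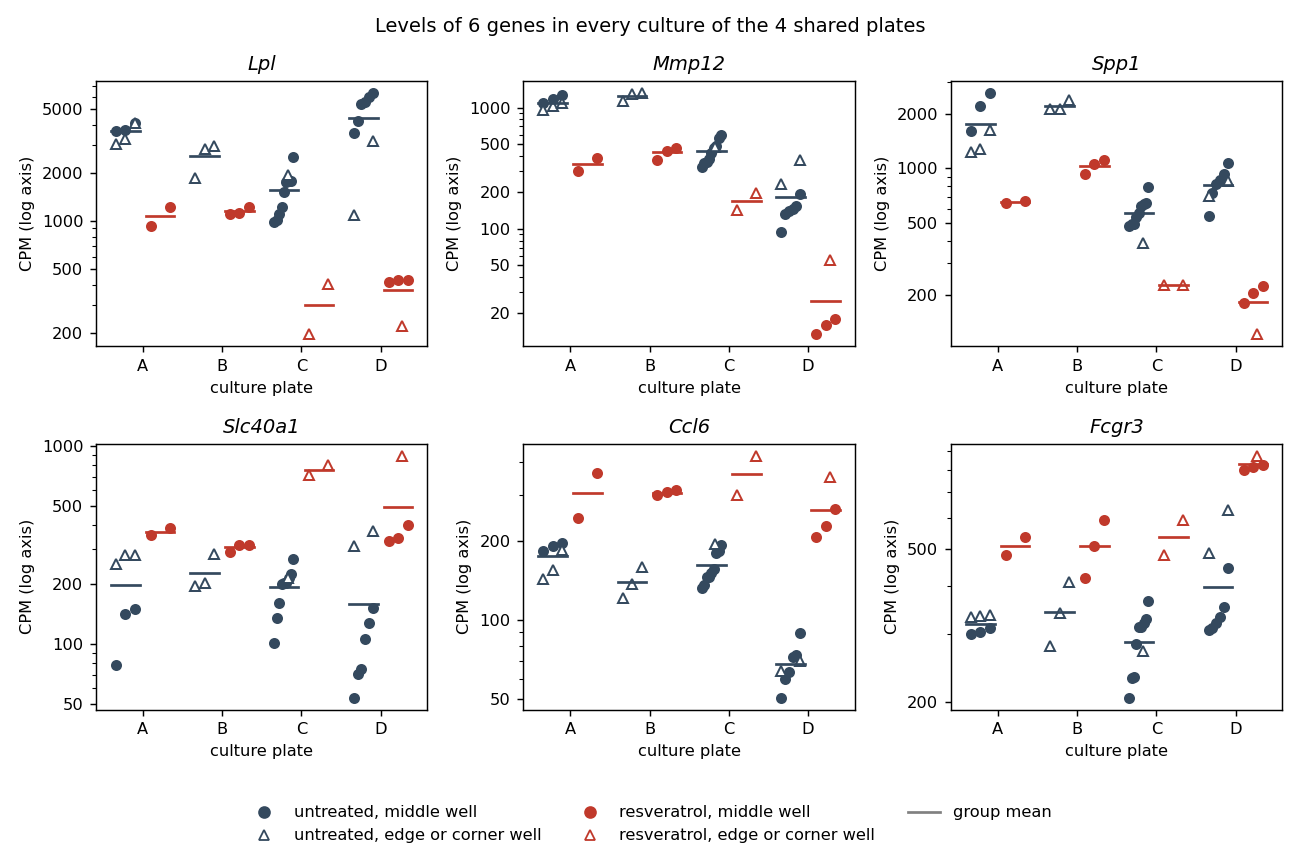
CPM on a log axis of 6 genes in every resveratrol and untreated culture of plates A to D; filled circles are middle wells, open triangles edge or corner wells, and horizontal lines group means. Within each plate all resveratrol cultures lie below the untreated cultures for Lpl, Mmp12 and Spp1 and above them for Ccl6 and Fcgr3, while Slc40a1 was above every untreated well in 9 of 11 cultures.

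Genes of cell division made up 10 of the 12 largest called falls among genes lower on all 4 shared plates. In the list of G2 and mitosis genes 27 of 28 members were tested and 19 were called lower, none higher, with a median difference of -1.56 beside 0.02 over all genes and a background of 2.87% called lower. Top2a, the DNA topoisomerase of dividing cells (chr11:98992943-99024189, minus strand), had 4.692 to 114.7 CPM (median 49.68) with resveratrol and 7.307 to 821.5 CPM (median 343.6) without, a difference of -2.29 ± 0.46 (adjusted p = 1.23e-03). Ccnb2, cyclin B2, which drives entry into mitosis, differed by -2.37 ± 0.52 (adjusted p = 3.34e-03), and Prc1, which bundles microtubules of the midzone, by -2.31 ± 0.48 (adjusted p = 1.87e-03). Cenpf (kinetochore), Plk1 (a mitotic kinase), Aspm (spindle poles), Nuf2 and Cdca8 differed by -2.16, -2.11, -2.33, -2.02 and -1.97, all called. Mki67, which encodes the proliferation marker Ki-67, differed by -1.58 ± 0.46 (adjusted p = 0.038).

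The level of these genes also moved with the place of the well, among untreated cultures alone. As the mean of log2(CPM + 1) over the 27 genes, the untreated edge wells stood at 2.45 on plate C and at 1.86 and 1.98 on plate D, while the untreated middle wells stood at 4.75 to 4.94 and 4.66 to 5.32. The resveratrol wells at the edge of plate C, at 2.16 and 2.54, lay on both sides of the untreated edge well, and that of plate D, at 1.79, lay just under the untreated edge wells. In the middle of plate D the resveratrol wells stood at 1.99 to 2.37, far under the untreated middle wells. In the middle of plate A they stood at 3.91 and 3.98 against 4.73 to 5.22, a smaller gap. On plate B no untreated middle well was present, and the resveratrol wells, at 3.42 to 3.69, lay within the 3.24 to 4.47 of the untreated edge and corner wells. Between wells of like position the mitosis genes were thus lower with resveratrol in the middle of plates A and D. On plate C, which holds no resveratrol well in the middle, 9 of the 10 untreated wells were middle wells. With position in the block 15 of the 27 were called lower, with a median of -1.45, and with middle wells alone 18 were. Without plate C 6 were called lower and without plate D 5.

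**Figure D3:**
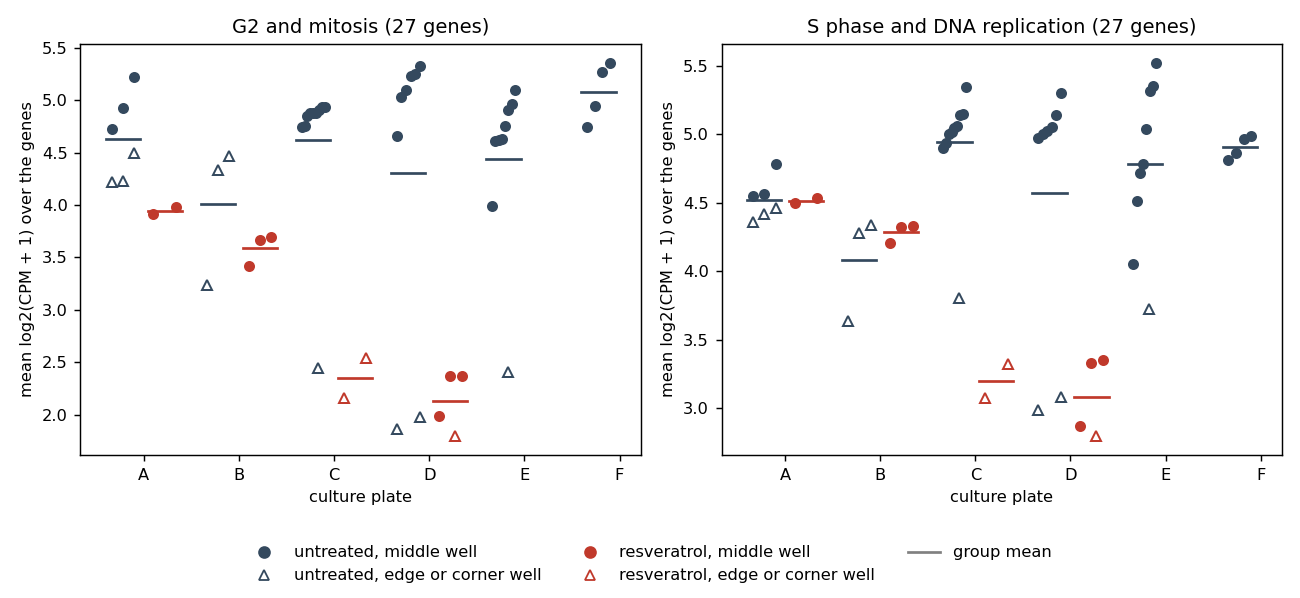
Mean log2(CPM + 1) over the tested genes of the G2 and mitosis list (left) and of the S phase and DNA replication list (right) in each culture by plate; filled circles are middle wells, open triangles edge or corner wells, lines group means, dark untreated and red resveratrol. On plate D the resveratrol middle wells lie at 1.99 to 2.37 for the mitosis genes, apart from the untreated middle wells and near the untreated edge wells.

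Promoters of mitosis genes are known for pairing a CCAAT box with a cell cycle homology region, an element read by the repressive and activating complexes of the cell cycle. Below are the RefSeq promoters (GRCm38.p6, 250 bases before to 50 after the start, 5′ to 3′ on the gene's strand) of 3 genes with large falls, shown to let the motifs be seen in place. They are Ccnb2 at chr9:70421505-70421804 (minus), Prc1 at chr7:80294201-80294500 (plus) and Top2a at chr11:99024140-99024439 (minus). Capitals mark matches on either strand to the CCAAT box and to the homology element, searched as TTTGAA and, in a variant form, as TTCGAA. The opposite strand of the box reads ATTGG, while that of the first form of the element reads TTCAAA, and a box and an element next to it can share a base.
Ccnb2: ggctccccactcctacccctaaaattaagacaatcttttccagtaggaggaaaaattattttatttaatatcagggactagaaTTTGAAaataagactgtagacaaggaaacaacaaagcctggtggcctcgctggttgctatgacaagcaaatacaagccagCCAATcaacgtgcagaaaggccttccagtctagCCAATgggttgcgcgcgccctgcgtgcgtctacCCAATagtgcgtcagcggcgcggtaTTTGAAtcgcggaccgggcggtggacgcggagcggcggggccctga
Prc1: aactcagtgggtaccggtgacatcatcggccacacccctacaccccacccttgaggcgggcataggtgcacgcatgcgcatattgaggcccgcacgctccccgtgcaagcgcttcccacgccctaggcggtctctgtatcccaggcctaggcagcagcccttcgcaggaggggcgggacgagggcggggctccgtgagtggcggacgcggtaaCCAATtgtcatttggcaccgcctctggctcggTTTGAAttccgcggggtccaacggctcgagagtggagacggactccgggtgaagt
Top2a: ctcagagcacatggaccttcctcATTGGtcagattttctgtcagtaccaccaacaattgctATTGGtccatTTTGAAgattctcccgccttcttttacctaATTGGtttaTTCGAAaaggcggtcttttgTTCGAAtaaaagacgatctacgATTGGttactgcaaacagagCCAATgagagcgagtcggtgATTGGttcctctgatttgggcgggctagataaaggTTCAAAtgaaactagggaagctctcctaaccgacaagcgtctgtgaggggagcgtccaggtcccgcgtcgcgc
Of the 28 genes in the mitosis list, 23 matched a promoter in the RefSeq table. CCAAT was present in 19 of these 23 (82.6%) beside 37.9% of all 27025 promoters of that length. TTTGAA or TTCGAA was present in 18 (78.3%) beside 19.4%, and both kinds in 17 (73.9%) beside 7.70%. Among 7565 promoters of genes tested CCAAT was present in 38.4%, TTTGAA or TTCGAA in 13.6% and both kinds in 5.64%. Both kinds were held by 45 of 234 promoters (19.2%) of genes called lower and by 3 of 81 (3.70%) of genes called higher. The genes called lower include members of the mitosis list, and their share without those members was not taken. These are matches of letters in a fixed window.

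In the list of S phase and DNA replication genes 27 of 30 members were tested, with a median of -0.90. Of these 8 were called lower (29.63%, beside 2.87% of all genes). They were Pcna, Mcm2, Mcm5, Mcm6, Tk1, Cdt1, Ccne1 and Lig1. Pcna, the sliding clamp of replication, had 208.6 to 966.6 CPM (median 395.3) with resveratrol and 335.3 to 1499 CPM (median 899.0) without. All 11 cultures lay below every untreated well of their plate, and the difference was -1.25 ± 0.17 (adjusted p = 4.20e-06). The helicase subunit gene Mcm5 fell by 1.60 ± 0.30 (adjusted p = 4.67e-04) and Ccne1, cyclin E1, by 1.62 ± 0.36. The replication genes did not fall on every plate. Their mean stood at 4.50 and 4.53 in the resveratrol wells of plate A, against 4.55 to 4.78 in untreated middle wells and 4.36 to 4.46 in untreated edge wells, and at 4.21 to 4.33 on plate B against 3.64 to 4.34. On plate D the middle wells stood at 2.87 to 3.35 with resveratrol and at 4.97 to 5.30 without. With position in the block 13 were called lower, Mcm7, Rrm2, Cdc45, Uhrf1 and Fen1 in addition.

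Genes that mark disease-associated microglia, a lipid-handling state of microglia near damage, moved both ways. Of 20 members 19 were tested, with a median of -0.22. The 5 called lower were Lpl, Spp1, Cd9, Itgax and Igf1 (26.32%, beside 2.87% of all genes). The 3 called higher were Apoe, Fabp5 and Ccl6 (15.79%, beside 1.07%). The integrin gene Itgax differed by -0.74 (adjusted p = 0.026) and by -0.49 with position in the block (adjusted p = 0.31). Cd9, a tetraspanin, fell by 1.06 ± 0.23 (adjusted p = 3.13e-03). Igf1, a growth factor gene, fell by 0.56 ± 0.11 (adjusted p = 1.23e-03). Apoe, which encodes the main apolipoprotein of the brain, had 10050 to 88720 CPM (median 29870) with resveratrol and 8167 to 59040 CPM (median 20920) without. It was above every untreated well of its plate in 9 of 11 cultures and rose by 0.70 ± 0.13 (1.63-fold, adjusted p = 6.79e-04). Fabp5, a carrier of fatty acids in the cytosol, rose by 0.50 ± 0.12 (adjusted p = 8.05e-03).

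Targets of the liver X receptor (LXR), which senses sterols, included 3 called higher of 14 tested, Apoe, Abca1 and Mylip, and none lower. The 3 are 21.43%, beside 1.07% of all genes, and without plate D 0 of 14 were called. Abca1, which exports cholesterol, rose by 0.73 ± 0.17 (adjusted p = 6.12e-03), and Mylip, a ubiquitin ligase that lowers LDL receptor, by 0.67 ± 0.19 (adjusted p = 0.024). The median of the 14 was 0.09. Among 23 tested genes of cholesterol synthesis Fdft1 and Fdps were called lower, at -0.78 and -0.61, and neither was called with position in the block (adjusted p = 0.13 and 0.18).

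In metal and iron handling Slc40a1 rose, while Tfrc, the transferrin receptor that brings iron in, fell by 0.56 ± 0.17 (adjusted p = 0.048) and Steap3, an endosomal iron reductase, by 0.83 ± 0.18 (adjusted p = 3.34e-03). The other 12 of the 15 tested were not called. With position in the block the adjusted p of Tfrc was 0.20. Among phagocytosis and scavenger receptors Scarb1, which takes up lipid from lipoproteins, fell by 0.82 ± 0.14 (adjusted p = 1.74e-04). Msr1, scavenger receptor A, fell by 0.48 ± 0.11 (adjusted p = 7.52e-03). With the Fc receptors above, 2 rose and 3 fell of 18 tested (11.11% and 16.67%, beside 1.07% and 2.87% of all genes).

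The integrated stress response answers shortage of amino acids and related stress. Of its genes 4 of 19 tested were called lower (21.05%, beside 2.87% of all genes) and none higher, with a median of -0.31. With middle wells alone 1 of 18 was called lower, and without plate D 0 of 18. Phgdh, the first enzyme of serine synthesis, fell by 1.34 ± 0.28 (2.53-fold, adjusted p = 2.24e-03). Mthfd2, of mitochondrial folate metabolism, fell by 0.80 ± 0.20, Atf3, a stress-induced transcription factor, by 0.84 ± 0.15 (adjusted p = 3.38e-04), and Psat1, also of serine synthesis, by 0.53 ± 0.15. Psat1 was not called with position in the block (adjusted p = 0.35).

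Of 32 NF-kB inflammatory genes tested 3 were called lower (9.375%, beside 2.87% of all genes), Tnfaip3 (-0.87), Ccl4 (-0.80) and Rel (-0.75). Tnfaip2 was called higher (0.77), and the median of the list was -0.02. Tnf differed by -0.03 ± 0.20 and Il1b by -0.01 ± 0.33, neither called, from medians of 68.84 and 13.11 CPM with resveratrol and 89.80 and 9.218 CPM without. Of 33 type I interferon response genes tested 2 were called lower (6.061%, beside 2.87% of all genes), Oasl2 (-0.71) and Xaf1 (-0.67). With position in the block 3 were called lower. With library pool as block, with middle wells alone, without plate C or without plate D none was. In the prostaglandin and leukotriene pathway Ptgs1, cyclooxygenase 1, rose by 0.58 ± 0.17 (adjusted p = 0.046) and Alox5, 5-lipoxygenase, by 1.29 ± 0.38 (adjusted p = 0.038), while Ptger4, a receptor of prostaglandin E2, fell by 1.16 ± 0.26 (adjusted p = 4.62e-03). Alox5 was not called with position in the block (adjusted p = 0.082). Over all plates Ptgs1 had a median of 34.32 CPM with resveratrol and 38.7 CPM without, so its rise appears only within plates. Its call was lost in 20 of 33 alternative settings, among them library pool as block.

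Egr2, an immediate early transcription factor of macrophages, was the largest fall among immediate early genes, at -1.61 ± 0.28 (3.06-fold lower, adjusted p = 1.63e-04). With middle wells alone it differed by -0.61 and was not called (adjusted p = 0.50). Rgs2 fell by 0.51 and Ier3 rose by 0.91, the only other calls among 23 tested. Among p53 targets Trp53inp1 rose by 1.19 (adjusted p = 0.0498) and Plk2 fell by 0.87 of 18 tested, and Cdkn1a, the p21 inhibitor of cyclin-dependent kinases, differed by 0.32 (adjusted p = 0.30). Gadd45a, a growth arrest gene, rose by 1.29 ± 0.28 (adjusted p = 3.30e-03), and Fbxo32, a muscle ubiquitin ligase also called atrogin, by 1.22 ± 0.27 (adjusted p = 4.13e-03). Dbp, a clock output transcription factor, was the largest called rise among the named genes, at 2.02 ± 0.53 (adjusted p = 0.017). Dbp was not called with library pool as block (adjusted p = 0.097), with middle wells alone (0.14) or without plate D (0.48). Its level was 13.11 to 48.88 CPM (median 24.73) with resveratrol and 0 to 31.14 CPM (median 8.26) without, and the groups overlap.

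Of the remaining large rises Phxr4 (1.89), Frat2 (1.64), Mturn (1.53), Syt8 (1.27) and Mplkip (1.26) were called, and of these Mplkip was not with position in the block (adjusted p = 0.13). Other lists held few calls. In the complement list Cfp, properdin, rose by 0.64 and the integrin gene Itgb2 fell by 0.45. Il4ra, a receptor subunit for interleukins 4 and 13, rose by 0.76 among 4 tested markers of that response, and the class I gene H2-D1 by 0.53. The lysosomal glucuronidase gene Gusb, the glycolytic gene Tpi1 and the heat shock cofactor gene Ahsa1 fell by 0.41, 0.51 and 0.38, and none of these 3 was called with position in the block. Among genes of homeostatic microglia P2ry12 differed by 0.30 ± 0.30 and Tmem119 by 0.10 ± 0.26, neither called.

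Of the pathways named at the outset, prostaglandin synthesis held the calls given above, among them Ptgs1. It also stands in the list of resveratrol targets and was the only call of 12 tested there, lost in 20 of 33 alternative settings. The lists that follow are short beside the 3.93% of all genes that were called, so that nothing is read from a count of 0 in them. Of the 10 AHR pathway genes 6 were tested and none was called. Cyp1a1, its classic induced target, was listed at 0 CPM in all 51 cultures and Cyp1b1, at no more than 5.199 CPM in any culture, did not pass the filter and was not tested. Tiparp differed by 0.53 ± 0.25 (adjusted p = 0.27) and Ahrr by 0.14 ± 0.32. None of 24 NRF2 targets was called with plate as block, although 20 of the 24 differences were positive and their median was 0.22. With position in the block 5 of them were called higher, beside 1.73% of all genes, Gstm1 (0.87), Gclm (0.74), Abcc1 (0.73), Ftl1 (0.59) and Fth1 (0.54). With middle wells alone 1 of 23 was called higher, and with library pool as block 0 of 24. Without plate C the median was -0.01, with 0 of 23 called higher and 1 lower, so the positive lean depended on that plate. With plate as block none of 18 sirtuin, AMPK and mitochondrial genes was called, with Sirt1 at 0.14 ± 0.25, nor was any of 22 autophagy genes, 45 genes of oxidative phosphorylation or 19 of the unfolded protein response. With position in the block Nampt, of NAD synthesis, was called higher in the sirtuin list (0.55, adjusted p = 0.048) and Map1lc3b, of autophagosomes, in the autophagy list (0.64). The quinone reductase gene Nqo2, whose product binds resveratrol, differed by -0.46 ± 0.19 (adjusted p = 0.19).

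**Figure D4:**
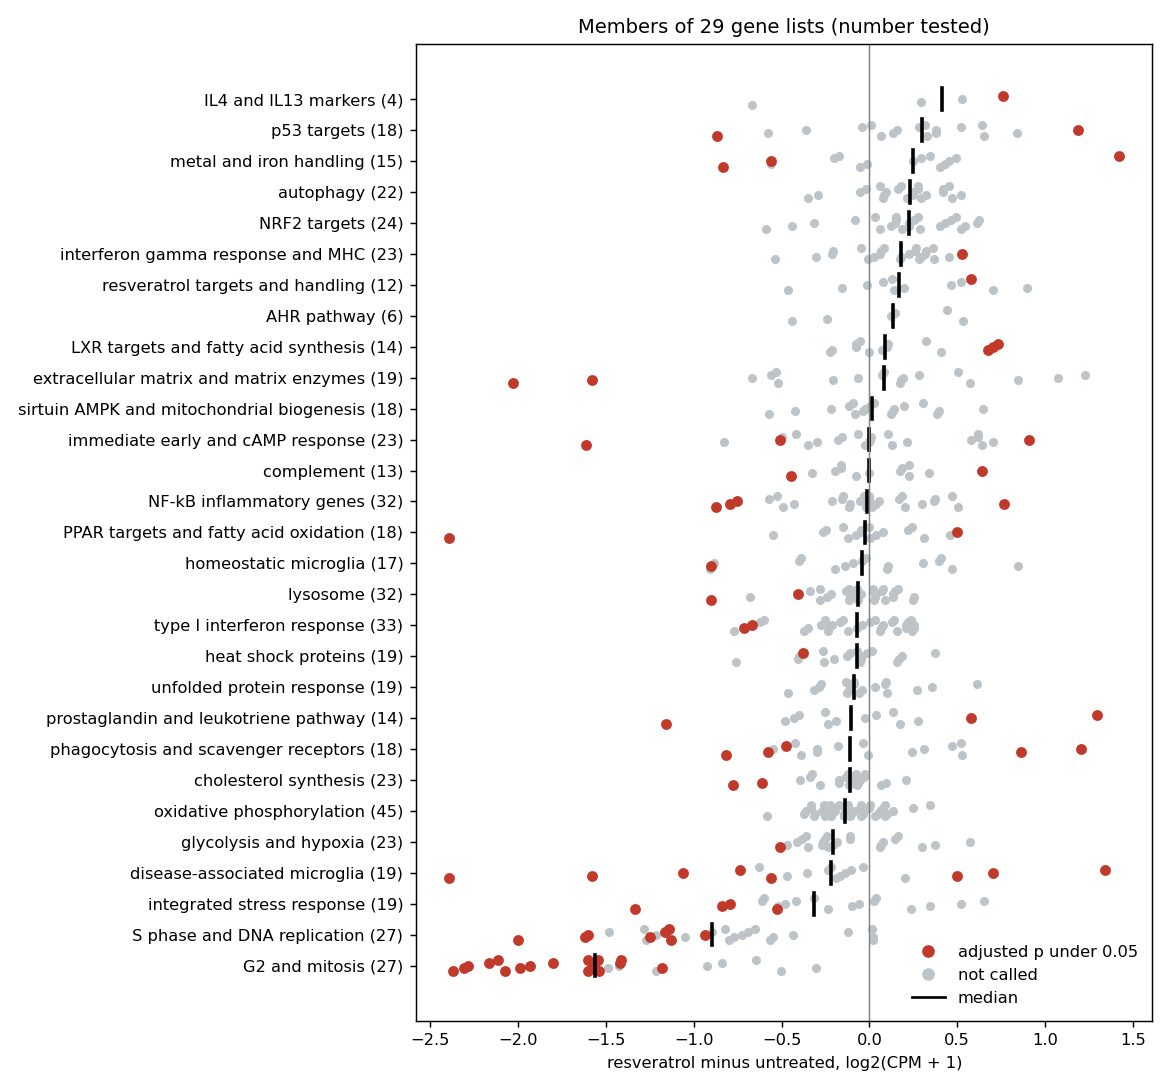
Differences (resveratrol minus untreated, log2(CPM + 1)) of every tested member of 29 gene lists, with the number tested in brackets; red points passed an adjusted p of 0.05, grey points did not, and black marks are medians. The medians of the mitosis and S phase lists lie at -1.56 and -0.90, and those of all other lists between -0.31 and 0.41.

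Hmox1, heme oxygenase 1, was among 13 genes (0.126% of those tested) whose change differed between plates (F test of plate by resveratrol in limma, adjusted p = 0.019 for Hmox1). Its pooled difference was 0.40 ± 0.19 (adjusted p = 0.28). On plate C the resveratrol wells had 1760 and 1773 CPM against 265.0 to 521.7 CPM untreated. On plate D the edge wells had 1882 CPM with resveratrol and 1789 and 1819 CPM without, and the middle wells 849.5 to 1051 CPM and 567.5 to 983.2 CPM. The difference was 2.09 on plate C and between -0.42 and 0.24 on the other plates. On C the resveratrol wells were at the edge, where the untreated wells of plate D were also high but that of plate C, at 453.5 CPM, was not. The other named members of the 13 included Il1b, Adamts1, Mcm2, Mcm3 and Pcna, and for Pcna all 4 plates fell, from -0.54 on A to -1.98 on D.

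Rapamycin, an inhibitor of the growth kinase mTORC1 that slows division in many cells, was another small molecule of the panel, not related to resveratrol in structure. In a fit of all 24-hour conditions 87 of 12717 genes (0.684%) differed between resveratrol and rapamycin, 35 higher (0.275%) and 52 lower (0.409%) with resveratrol. Lpl had 98.88 to 4431 CPM (median 2941) with rapamycin and was lower with resveratrol by 1.78 ± 0.25 (adjusted p = 6.02e-08), although the ranges overlap. Mmp12 (70.24 to 2017 CPM, median 374.0, with rapamycin) differed by -1.72 ± 0.17, and Pde1c, a cyclic nucleotide phosphodiesterase, by -2.35 ± 0.39. Higher with resveratrol than with rapamycin were Ccl6 (0.93 ± 0.17), Fabp5 (0.98 ± 0.15), Il4ra (1.02 ± 0.23), Hpse (1.49 ± 0.27) and Hmgcs1 (1.07 ± 0.25). In the same direction were 5 of 19 genes of the unfolded protein response, the chaperone genes Hspa5 (0.93), Pdia6 (0.86), Calr (0.74) and Hsp90b1 (0.66) and the transcription factor gene Xbp1 (0.68). Against the untreated cultures none of these 5 genes was called with resveratrol.

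For the mitosis list none of 28 tested genes was called between resveratrol and rapamycin, with a median difference of -0.75. Top2a had 29.07 to 177.5 CPM (median 115.4) with rapamycin, and the difference between the compounds was -1.17 ± 0.50 (adjusted p = 0.35), which does not show that they were alike. Spp1 (-0.60 ± 0.22), Slc40a1 (0.79 ± 0.27) and Fcgr3 (0.28 ± 0.12) did not pass either, at adjusted p of 0.22, 0.18 and 0.38.

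Among all 37 conditions measured at 24 hours without LPS combinations, each against the same untreated cultures, resveratrol had the lowest Lpl, at -2.34 ± 0.20 with position in the block, next to LPS_hi at -1.98 ± 0.17. Slc40a1 was the second highest with resveratrol, at 1.29 ± 0.21, between HDL at 1.54 ± 0.25 and nicotine at 0.77 ± 0.23. The gaps between resveratrol and LPS_hi or HDL were not tested. Fcgr3 and Apoe were highest with resveratrol, at 0.88 ± 0.10 and 0.86 ± 0.12, but GMCSF (0.83 ± 0.11) and nicotine (0.82 ± 0.14) stood next to them within the error. Mmp12 was the third lowest, at -2.19 ± 0.13, and was called lower in 18 of the 37 conditions. Ccl6 was number 5 from the highest, at 1.16 ± 0.14, was called higher in 11 conditions and reached 4.85 with GMCSF. Fcgr2b was number 4 from the highest, at 1.07 ± 0.21, and was called higher in 6. The median of the mitosis list was below 0 in 33 of the 37 conditions with position in the block (31 with plate alone), so that a median below 0 was common across the panel. Resveratrol was number 4 from the lowest in both fits. With position in the block its median was -1.66, next to IFNb at -1.64, and 23 of 28 genes were called lower.

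**Figure D5:**
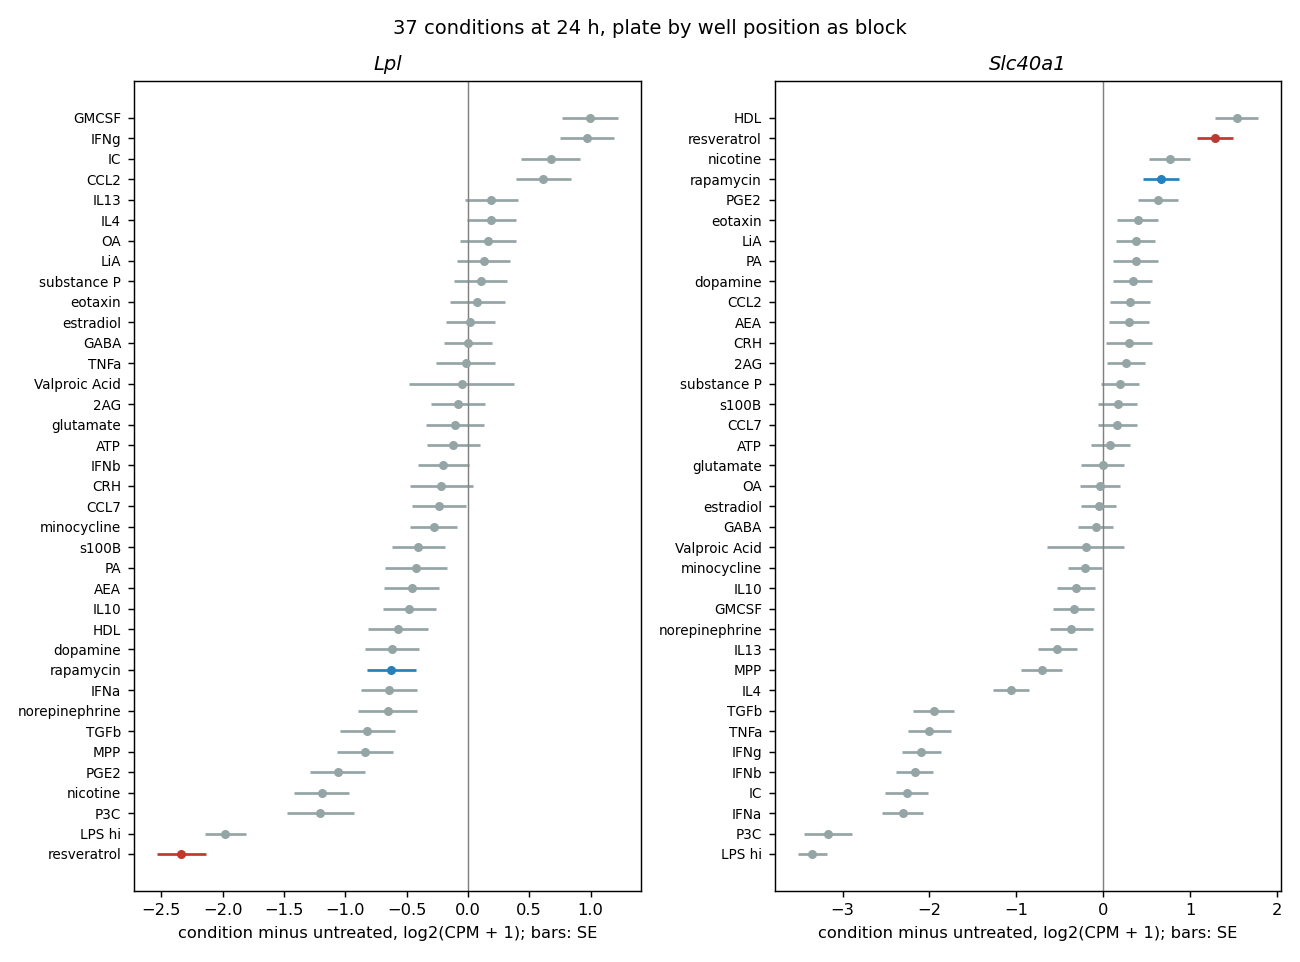
Differences from the shared untreated cultures of Lpl (left) and Slc40a1 (right) under 37 conditions at 24 hours, log2(CPM + 1) with standard errors, plate by well position as block; resveratrol is red and rapamycin blue. Resveratrol is lowest for Lpl at -2.34 and the second highest for Slc40a1 at 1.29.

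The same compound was also added together with the low dose of LPS, and a term for the change with resveratrol under LPS minus the change without LPS was fitted. It was called for 454 of 10646 genes (4.26%), 296 positive (2.78%) and 158 negative (1.48%). On plates C and D the LPS_lo cultures were in other library pools than the cultures with resveratrol. With library pool in place of plate 431 genes were called, 277 positive and 154 negative, and with plate by position 400.

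Several genes that resveratrol moved without LPS moved less or the other way with it. Lpl had 610.2 to 1021 CPM (median 746.2) in the 7 LPS_lo cultures and 331.9 to 1046 CPM (median 518.7) in the 8 cultures with both, and its term was 1.96 ± 0.39 (adjusted p = 1.19e-03). Fcgr2b had 146.1 to 454.0 CPM with LPS_lo and 107.5 to 247.7 CPM with both, a term of -2.04 ± 0.31, so that its levels with both were no higher than with LPS_lo. Ccl6 had 45.59 to 323.4 CPM (median 111.7) and 36.86 to 347.6 CPM (median 100.9), a term of -1.93 ± 0.26. Fcgr3 and Mmp12 had terms of -1.49 ± 0.31 and 1.96 ± 0.39, both called. For Slc40a1 the medians were higher with resveratrol in both settings. It had 4.211 to 56.93 CPM (median 34.16) with LPS_lo and 19.07 to 224.8 CPM (median 94.18) with both, and its term was 0.22 ± 0.49 (adjusted p = 0.87).

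The largest negative terms were those of genes with high levels under LPS_lo and lower levels with both agents. Il1rn, the antagonist of the interleukin 1 receptor, had 7.932 to 73.88 CPM with resveratrol alone and 3.318 to 51.08 CPM untreated, but 480.0 to 788.0 CPM with LPS_lo and 17.21 to 105.7 CPM with both (term -3.09 ± 0.34, adjusted p = 6.60e-09). Ccl2, a monocyte chemokine gene, had 92.29 to 519.9 CPM with LPS_lo and 5.611 to 79.69 CPM with both (term -3.50 ± 0.46). Nos2, inducible nitric oxide synthase, had 33.52 to 565.1 CPM and 11.36 to 63.48 CPM (term -3.07 ± 0.44). Slfn4, Thbs1 and Ccl7 had terms of -3.60, -3.53 and -3.32. Of 34 type I interferon genes tested 15 had called negative terms and none a positive term, beside 1.48% negative and 2.78% positive of all genes. Ifit3 among them had a term of -1.21 (adjusted p = 0.022, and 0.075 with position in the block). Tnf, in contrast, had 461.3 to 1552 CPM with LPS_lo and 477.6 to 2404 CPM with both, and its term of 0.59 ± 0.48 was not called (adjusted p = 0.58). The largest positive terms were those of Egr2 (3.50), Tcaf1 (3.34), Rasgrp3 (3.24), Ccnb1 (3.01), Sgol2a (3.00) and Calcrl (2.83). In that order their medians with LPS_lo were 0.2112, 0.4554, 1.815, 1.06, 0.2904 and 3.195 CPM. With both agents their medians were higher, at 6.021, 12.7, 8.276, 3.224, 5.102 and 22.06 CPM in the same order. Levels as low as those with LPS_lo also leave little room for a fall with resveratrol. How much a rise under LPS and a missing fall each add to these terms was not tested.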

How the data were processed

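Per the labels and the study's methods, barcoded RNA of many wells was pooled, amplified and sequenced near the 3' ends, and the authors ran Salmon 0.7.1 on Ensembl transcripts. The deposited CPM values (called TPM in the paper) are a gene's summed reads relative to all reads mapped in that well. The submitters' notes name build mm8, while the annotation stated in the methods is on GRCm38, used here for coordinates. Depth was read from the step between low values. Of values up to 6 reads, 75% to 90% per culture lay within 0.1 of a whole read, so counts were not rebuilt.

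Genes above 5 CPM in 11 or more of the 51 cultures were fitted as log2(CPM + 1) with limma 3.58.1 (R 4.3.3), plate as block, and called at a Benjamini-Hochberg adjusted p under 0.05. Fold changes on this scale understate those of low genes. Replicates are wells, so p-values measure the spread between wells, which may be technical. Named genes were the 12 largest called rises and falls, up to 4 per gene list, the 6 largest LPS terms each way and a fixed set of targets. Members and lists were chosen with earlier results of these data known. Scripts were tested on simulated data. The result of 1 called gene is not reported here.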

Additional observations from a re-analysis of the deposited data

Results flagged for a closer look

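The change with resveratrol under low-dose LPS differed from that without LPS for 454 genes by the test of the LPS term. The terms of Slfn4 (-3.60), Thbs1 (-3.53), Ccl2 (-3.50), Ccl7 (-3.32), Il1rn (-3.09) and Nos2 (-3.07) were the largest negative ones, and those of Egr2 (3.50), Tcaf1 (3.34), Rasgrp3 (3.24), Ccnb1 (3.01), Sgol2a (3.00) and Calcrl (2.83) the largest positive ones, on the log2(CPM + 1) scale. The genes with these positive terms were near the floor with LPS_lo, at medians of 0.2112 to 3.195 CPM. With both agents their medians were 3.224 to 22.06 CPM. The change without LPS differed between plates for 13 genes, among them Hmox1, Pcna and Mcm2. In 1 of 24 groups of cultures examined for a culture far from the others, the lowest of the 7 LPS_lo cultures stood apart for Ccl2, at 92.3 CPM against a group median of 430.6 CPM. Chance alone marks about 1 in 20 such groups.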

How the results depend on the processing

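Of 66 named genes called with resveratrol, 2176 differences were computed under 33 alternatives. Of these 1778 kept direction and call, 398 kept direction without passing the threshold, and none reversed. The alternatives reuse cultures in which these genes were called, so that a kept direction is not independent support. Of the 66 genes 51 were not called without plate D, 30 were not without edge wells and 15 were not with plate by position. The count of 406 genes became 680 with all 24-hour conditions in the fit, 662 with array weights, 612 without the untreated pool that stood apart, 228 without plate C and 60 without plate D, and ranged from 303 to 415 when each resveratrol culture was left out in turn. The count of 152 genes with at least a 2-fold change became 91 with library pool as block, 270 with all 24-hour conditions, 238 without edge wells, 63 with a pseudocount of 5, 101 without plate C, 29 without plate D, 83 with the untreated wells of the resveratrol pools alone and 239 with plate by position. It ranged from 110 to 165 without single cultures. The 454 genes of the LPS term became 204 with no plate in the fit. Fits that leave out plate C or D have fewer cultures, and the cause of the other shifts was not tested.

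Some genes that were not called changed sign. Ahrr was -0.038 without plate A and -0.043 without plate D, Hmox1 was -0.092 without plate C, and Sirt1 was -0.078 without edge wells. Tnf was 0.42 without edge wells, 0.098 with array weights, 0.19 without plate C, 0.10 without plate D and 0.099 with plate by position. Il1b was 0.71 without edge wells, 0.054 with a pseudocount of 5, 0.029 with quantile normalization, 0.11 with array weights, 0.22 without shallow cultures, 0.33 without plate B, 0.070 without plate C and 0.49 with plate by position. Ifit3 was -0.21 with no plate and in the rank-sum test over pooled cultures, -0.064 with all 24-hour conditions, -0.031 without shallow cultures, -0.012 without plate B and -0.064 with plate by position. Tmem119 was -0.070 with array weights and -0.22 without plate D. Without single cultures Ahrr ranged from -0.0011 to 0.25, Tnf from -0.11 to 0.069 and Il1b from -0.16 to 0.061.

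Plate by position and the untreated-pool alternatives were chosen after seeing the data. No paired analysis was possible because replicate numbers follow the order of the samples and mark no shared well, and plate was used as the block. In the shallowest culture, with 1086000 mapped reads, low CPM values stand for a handful of reads.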

Other observations

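Some called genes outside the lists were looked up after their values had been seen. Nr1d1, which encodes the clock repressor REV-ERB alpha, had 8.981 to 50.61 CPM with resveratrol and rose by 1.18 ± 0.29 (adjusted p = 9.91e-03, limma), in the same direction as Dbp. Other clock genes did not pass the test, among them Per1 at 0.58 ± 0.33, Per2 at 0.19 ± 0.31, Arntl at 0.62 ± 0.32, Tef at 0.26 ± 0.20 and Nr1d2 at 0.31 ± 0.29. Sepp1, which encodes the secreted selenium carrier selenoprotein P, had 760.8 to 3531 CPM (median 2203) with resveratrol and 395.9 to 1914 CPM (median 994.0) without, and rose by 0.93 ± 0.17 (adjusted p = 2.60e-04). It was above every untreated well of its plate in 9 of 11 cultures. Mxd4, an antagonist of MYC, rose by 0.94 ± 0.22 (adjusted p = 6.85e-03), and Cxcr4, a chemokine receptor gene, by 0.88 ± 0.20 (adjusted p = 5.27e-03). Myc and Ccnd1 differed by -0.56 ± 0.28 and -0.68 ± 0.33 and were not called. Without plate D none of Sepp1, Mxd4 and Cxcr4 was called (adjusted p = 0.052, 0.58 and 0.056). Cxcr4 was not called with position in the block either (adjusted p = 0.075).

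Counts were also taken over 31 of the study's gene modules, whose makeup is not independent of these cultures. Beside 1.07% of all genes called higher and 2.87% called lower, TQ_turquoise held 7 higher (4.90%) and 20 lower (13.99%) of 143 tested, with a median of -0.09. BR_turquoise held 2 higher (1.41%) and 12 lower (8.45%) of 142. TQ_magenta held 5 higher and 5 lower (15.2% each) of 33. These counts depended on the setting. In BR_turquoise 16 of 142 were called lower with position in the block, 4 of 139 with middle wells alone and 0 of 140 without plate D. Without plate D TQ_turquoise held 0 higher and 5 lower of 143, and TQ_magenta 0 higher and 3 lower of 32. Among modules with 20 or more tested genes the medians lay between -0.16 and 0.18.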
